A study of Mus musculus with 28 samples.

Results

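B cell receptor signalling genes are described here in mouse germinal centre (GC) B cells that carry, or do not carry, an altered allele of Tbl1xr1. The members are 41 genes named for their place in the pathway: receptor and co-receptor chains, proximal kinases, adaptors, inhibitory receptors and phosphatases, phosphatidylinositol 3-kinase (PI3K), exchange factors, the calcium and NFAT arm, and BCL10 with MALT1. All 41 of 41 met the rule of at least 1 CPM (read counts scaled to a common library total) in 3 or more libraries, in a list of 23382 gene symbols. RNA-seq of 28 libraries from GC B cells was deposited as CPM per gene.

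The libraries fall into 6 groups, and every group carries 1 copy of Cg1Cre, which drives Cre recombinase from the immunoglobulin gamma 1 constant region locus in antigen-activated B cells. The first pair is heterozygous Tbl1xr1 D370Y (5 libraries, D370Y) and unmutated Tbl1xr1 (3 libraries, WT). The second pair adds ImuBcl6, an allele that expresses Bcl6 from the immunoglobulin heavy chain locus, to heterozygous D370Y (5 libraries, ImuBcl6 D370Y) and to unmutated Tbl1xr1 (5 libraries, ImuBcl6). The third pair is a group labelled homozygous KO of Tbl1xr1 (5 libraries, KO) and its own Cre control (5 libraries), which has the same genotype label as WT but a protocol text of its own. The labels give no ages and do not tie libraries to animals, so a p-value here measures library-to-library spread, some of which may be technical.

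The B cell receptor signals through CD79A and CD79B, whose tyrosine motifs are phosphorylated by Src family kinases and then bind SYK. SYK phosphorylates the scaffold BLNK, which brings BTK and PLCG2 together, and PLCG2 opens a calcium arm that ends in NFAT and a protein kinase C arm that ends in BCL10 and MALT1. Inhibitory receptors such as CD22 and CD72 recruit the phosphatase SHP-1, and GC B cells are known for holding this pathway in a damped state in which phosphatases take part. TBL1XR1 is a subunit of the corepressor complex through which BCL6 represses its targets.

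Tbl1xr1 itself was at 102.0 ± 15.4 CPM (SD, n = 5) in the libraries labelled KO and 86.0 ± 5.82 CPM (n = 5) in Cre controls, so its transcript was not lower in the libraries labelled KO. Whole-gene CPM does not show the loss of a part of a gene, and the labels do not name the deleted part. Reads on listed genes numbered 19.0 to 37.7 M per library (M, mega), and KO replicate 3 stood apart with 64.4% of the authors' total on listed genes, against 78.7% to 84.6% in the others. Sex-linked transcripts split the first pairs in opposite ways: all 5 D370Y libraries had the Xist pattern and all 3 WT libraries the Y-linked pattern, while all 5 ImuBcl6 D370Y libraries had the Y-linked and all 5 ImuBcl6 libraries the Xist pattern. The KO group had 3 libraries with the Y-linked pattern, against 1 in Cre controls. Within either D370Y pair, sex and genotype cannot be told apart. The B cell genes Cd79a and Cd79b were high in every group, and the T cell genes Cd3e, Bcl11b and Cd3d reached at most 0.479, 0.156 and 1.72 CPM in any library. Other T cell genes were not as low. The full T cell list, given among the markers, summed to between 272 CPM in a WT library and 500.3 CPM in a library labelled KO. Most of that was Cd2 and Lck. The CD3 chain gene Cd3g and the zeta chain gene Cd247 were also higher in some groups.

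The transcripts of the receptor and its proximal machinery were abundant and, in the main, close to their controls. In WT cells the highest levels per kilobase of merged exons were those of Cd79b, at 1213 CPM per kb, and Cd79a, at 462 CPM per kb. Ptpn6, which encodes SHP-1, followed at 335 CPM per kb, ahead of Plcg2 and Cd22 at 166 CPM per kb each. At the low end were Ptpn22 at 1.95 CPM per kb, Grap2 at 3.54 CPM per kb, Nfatc2 at 3.61 CPM per kb and Sos1 at 3.67 CPM per kb. Ptpn22 and Grap2, the members with the lowest levels per kb in WT cells, are also the 2 members that were called in all 3 allele comparisons described next.

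**Figure D1:**
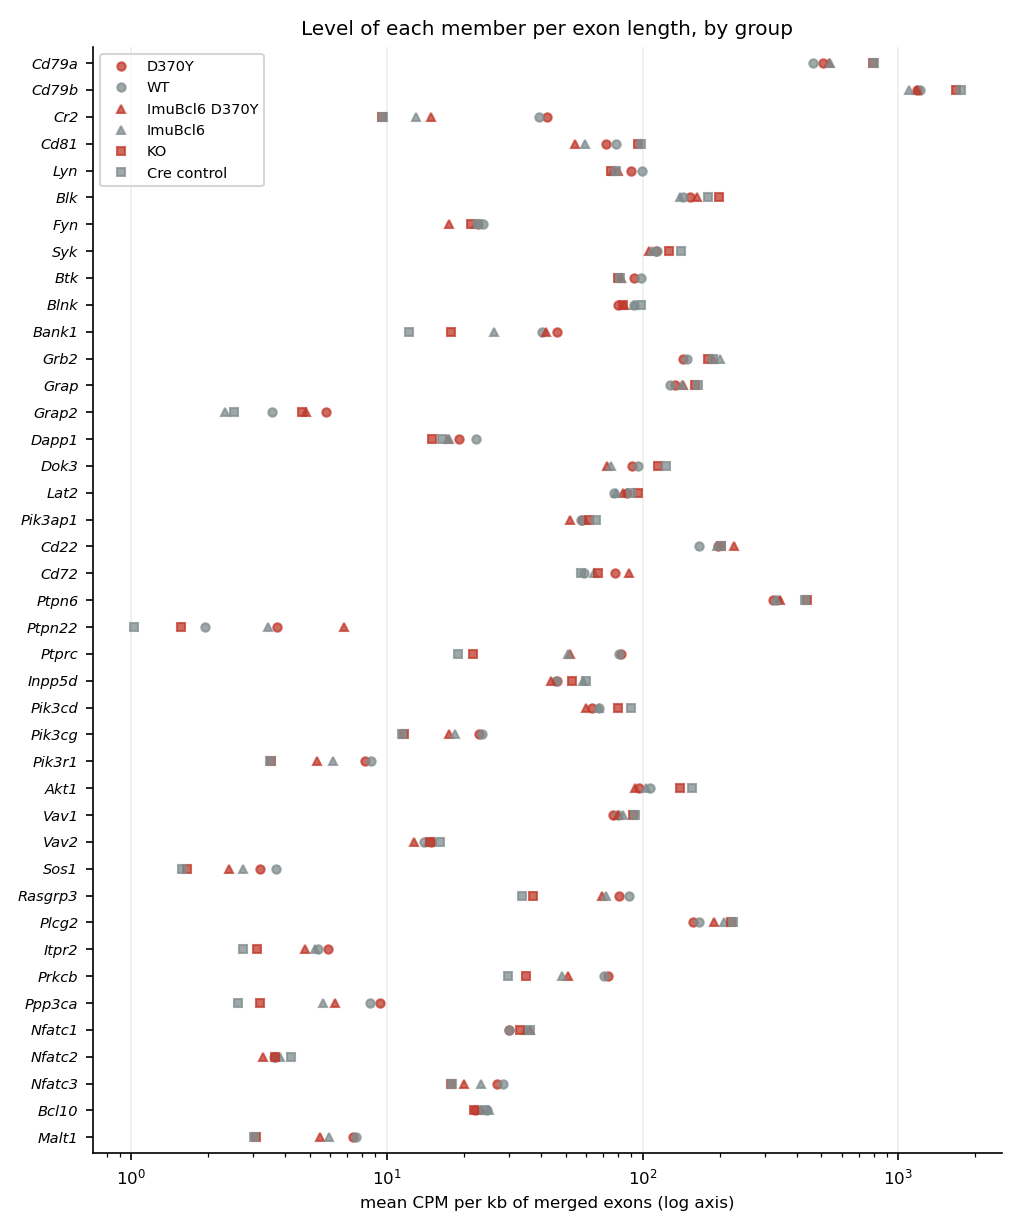
Mean level of each of the 41 members on a log axis of CPM per kilobase of merged exons, with 1 marker per group. Cd79b and Cd79a lie at the high end in every group, and Ptpn22 and Grap2 have the lowest levels in WT cells.

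Calls were made within each pair. In D370Y against WT cells 3 of the 41 members rose (limma, Benjamini-Hochberg adjusted p below 0.05 over 10600 genes), where 2.6% of all genes tested were called higher, and 0 fell, where 0.943% were called lower. The members that rose were the phosphatase gene Ptpn22, the adaptor gene Grap2 and the inhibitory receptor gene Cd72. In ImuBcl6 D370Y against ImuBcl6 cells the same 3 genes and the scaffold gene Bank1 rose, against a background of 2.8% called higher, and the inositol phosphatase gene Inpp5d fell, against 5.38% called lower. In the libraries labelled KO against Cre controls, Grap2, Bank1 and Ptpn22 rose, against 0.476% of all genes called higher, and 0 members fell, against 0.913%. The 3 comparisons share no library. Of the 10100 genes tested in all of them, 23 (0.228%) were called higher in all 3, and Ptpn22 and Grap2 were 2 of these 23.

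The remaining members gave small estimates. The median log2 fold change over the 41 members was -0.04 in D370Y against WT, where that of all genes tested was -0.02. It was -0.05 with ImuBcl6, against -0.01 for all genes, and -0.04 in the KO comparison, against -0.06. The 95% interval of the log2 fold change lay wholly within 0.5 of 0 for 37 of the 41 members in D370Y against WT, for 34 with ImuBcl6 and for 36 in the KO comparison. Groups that did not overlap in CPM numbered 9 members of 41 in D370Y against WT (22% of members and 14.8% of all genes), 6 with ImuBcl6 (14.6% and 8.96%) and 4 in the KO comparison (9.76% and 4.23%).

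**Figure D2:**
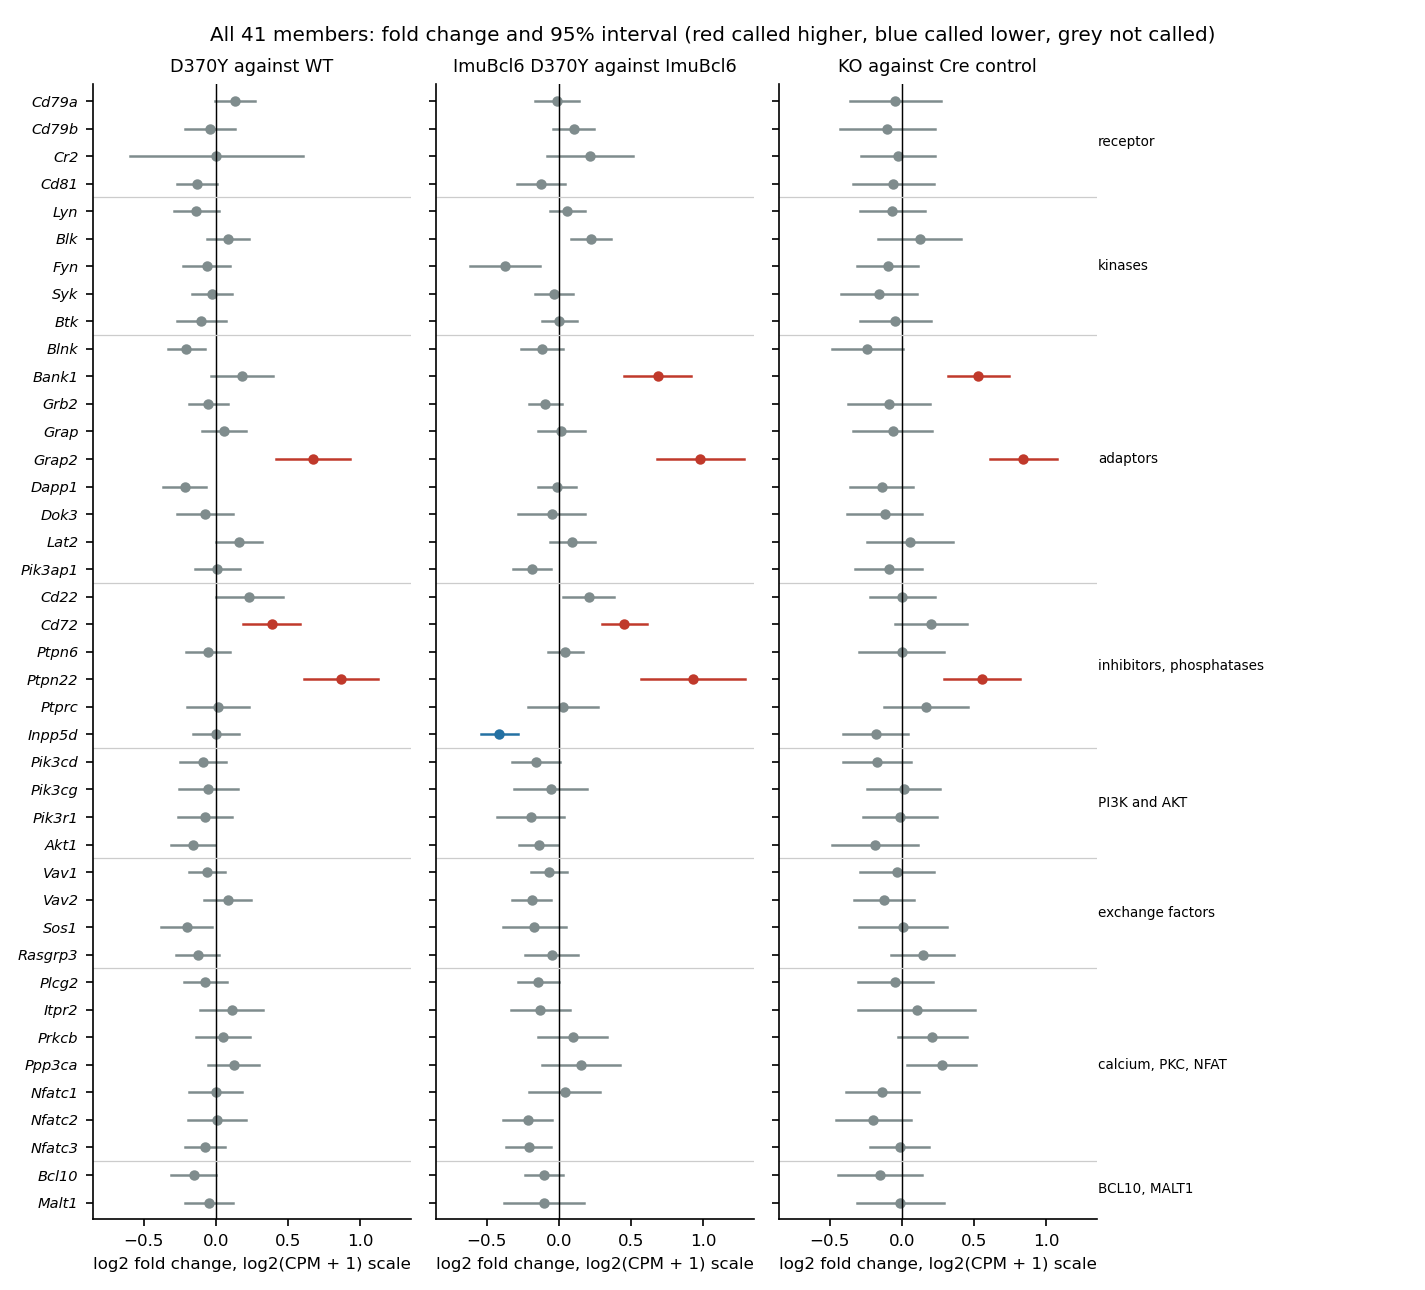
Log2 fold change, on the log2(CPM + 1) scale, with its 95% interval for each of the 41 members, ordered by role, in the 3 allele comparisons. Ptpn22 and Grap2 are called higher in all 3 panels, Bank1 in the ImuBcl6 and KO panels, Cd72 in both D370Y panels, and Inpp5d is called lower in the ImuBcl6 panel.

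Grap2 (chromosome 15, 80572594 to 80652854, plus strand) encodes GADS, an adaptor of the GRB2 family known best from T cells, where it joins LAT to SLP-76. Its CPM was 32.3, 32.2, 31.2, 40.3 and 43.8 in D370Y libraries, against 24.9, 19.4 and 21.9 in WT libraries. With ImuBcl6 it was 24.2, 25.9, 43.7, 27.6 and 29.6 in D370Y libraries, against 13.2, 17.7, 13.4, 14.8 and 13.6 in libraries without D370Y. The libraries labelled KO had 25.6, 34.0, 23.7, 31.7 and 30.6 CPM, against 14.3, 17.3, 15.0, 17.0 and 15.0 in Cre controls. In all 3 pairs the groups did not overlap, and the fold between group means was 1.63, 2.08 and 1.85 in that order. The log2 fold changes were 0.67 ± 0.12 (SE, limma adjusted p = 0.00774), 0.98 ± 0.14 (adjusted p = 0.0021) and 0.84 ± 0.11 (adjusted p = 0.000394). Without WT replicate 2, Grap2 in D370Y against WT had an adjusted p of 0.0530.

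Ptpn22 (chromosome 3, 103859795 to 103912247, plus strand) encodes a tyrosine phosphatase that restrains Src and SYK family kinases below antigen receptors. Its CPM was 22.5, 32.2, 25.2, 22.2 and 23.2 in D370Y libraries, against 11.4, 14.1 and 14.0 in WT libraries. With ImuBcl6 it was 28.2, 51.2, 58.6, 44.0 and 46.9 in D370Y libraries, against 30.0, 22.9, 20.2, 22.9 and 19.9 without D370Y. The libraries labelled KO had 10.4, 11.9, 10.4, 11.0 and 9.34 CPM, against 6.38, 7.02, 6.95, 5.15 and 9.29 in Cre controls. D370Y and WT libraries did not overlap, and neither did KO and Cre control libraries, though 1 library of each stood at almost the same value. In the ImuBcl6 pair 1 D370Y library lay inside the range of its controls. The log2 fold changes were 0.87 ± 0.12 (SE, limma adjusted p = 0.00167), 0.93 ± 0.17 (adjusted p = 0.00643) and 0.56 ± 0.13 (adjusted p = 0.0288). The KO call was lost in 8 of 20 alternative fits, among them those without any 1 of KO replicates 1, 2 and 4 or Cre control replicates 1 to 4, with adjusted p up to 0.107.

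Bank1 (chromosome 3, 136053363 to 136326066, minus strand) encodes a B cell scaffold that binds LYN and takes part in calcium release. Its CPM with ImuBcl6 was 333, 293, 363, 282 and 294 in D370Y libraries, against 242, 203, 192, 186 and 154 without D370Y. The libraries labelled KO had 128, 145, 142, 136 and 114 CPM, against 99.6, 96.7, 88.2, 84.9 and 88.8 in Cre controls. Neither pair overlapped, with log2 fold changes of 0.69 ± 0.11 (SE, limma adjusted p = 0.00298) and 0.53 ± 0.10 (adjusted p = 0.00761). Without ImuBcl6 the values were 339, 318, 331, 313 and 427 CPM in D370Y libraries, against 291, 283 and 336 in WT libraries. These overlapped, and the difference missed the threshold (0.18 ± 0.10, 95% interval -0.03 to 0.40, adjusted p = 0.359). Bank1 also belongs to the list of naive B cell markers given further on.

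Cd72 (chromosome 4, 43446462 to 43454628, minus strand) encodes an inhibitory co-receptor that recruits SHP-1. Its CPM was 225, 246, 279.9, 309 and 269.9 in D370Y libraries, against 197, 204 and 206 in WT libraries, which did not overlap. With ImuBcl6 it was 255, 294, 309, 334 and 323 in D370Y libraries, against 217, 241, 214, 212 and 216 without D370Y, which did not overlap either. The log2 fold changes were 0.39 ± 0.09 (SE, limma adjusted p = 0.0355) and 0.45 ± 0.07 (adjusted p = 0.00289). The first of these calls was lost in 7 of 16 alternative fits, including each fit without 1 of the WT libraries, with adjusted p up to 0.154. The libraries labelled KO had 222, 230.2, 172, 258 and 259 CPM, against 178, 198, 194, 195 and 217 in Cre controls (0.20 ± 0.12, adjusted p = 0.705). The lowest of these KO values, 172 CPM, was that of KO replicate 3. Without it Cd72 and the Src family kinase gene Blk were called as well (0.30, adjusted p = 0.0185, and 0.26, adjusted p = 0.0206), so that 5 members rose.

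Inpp5d (chromosome 1, 87620312 to 87720507, plus strand) encodes SHIP-1, which removes the lipid product of PI3K and so opposes it. Its CPM with ImuBcl6 was 314, 315, 331, 372 and 334 in D370Y libraries, against 407, 450.0, 465, 432 and 462 without D370Y. Every D370Y library lay below every control, and the log2 fold change was -0.41 ± 0.06 (SE, limma adjusted p = 0.00211). Without ImuBcl6 the CPM was 380.5, 327, 316, 379 and 353 in D370Y libraries, against 351, 355 and 343 in WT libraries (0.00 ± 0.07, adjusted p = 0.995). The libraries labelled KO had 428, 451, 348, 374 and 416 CPM, against 422, 448, 492, 448 and 473 in Cre controls (-0.18 ± 0.11, adjusted p = 0.708).

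**Figure D3:**
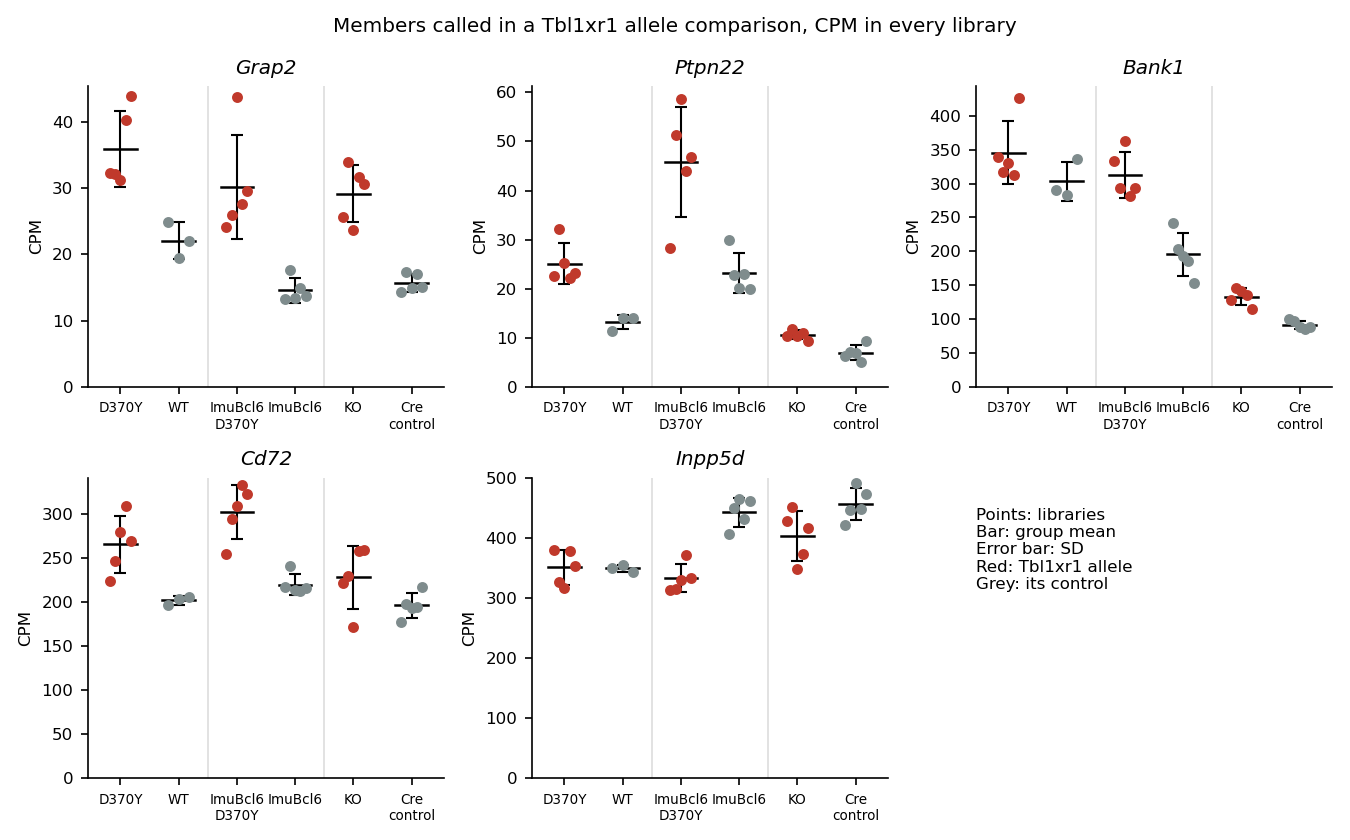
CPM of the 5 members called in an allele comparison, with 1 point per library, the group mean as a bar and the SD as an error bar; each Tbl1xr1 allele group stands left of its control. Grap2 is higher than its control in every library of all 3 pairs, whereas Inpp5d is below its control in every library of the ImuBcl6 pair.

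Gene bounds of some of these members overlap other annotated genes, and the labels do not give the strand setting of the counting. Cd72 overlaps the protein-coding gene Tesk1 on the opposite strand and Bank1 overlaps the antisense gene Gm31243. Ptpn22 overlaps the processed pseudogene Gm15602 on the opposite strand. Grap2 overlaps the unconfirmed transcript Gm49553 and the microRNA gene Mir6957 on its own strand. Reads of such neighbours could have been counted with the member.

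The differences between effects were tested in fits of 4 groups. Between backgrounds, the D370Y effect with ImuBcl6 minus that without it was called for 1 of 41 members, where 0.663% of all genes tested were called. That member was Inpp5d (-0.41 ± 0.09 SE, limma adjusted p = 0.0487). This call sits at the threshold and was lost in 20 of 26 alternative fits, with adjusted p from 0.0171 to 0.206 over all of them. The difference was 0.50 ± 0.16 for Bank1 (adjusted p = 0.180) and 0.31 ± 0.20 for Grap2 (adjusted p = 0.564). It was 0.06 ± 0.23 for Ptpn22 (95% interval -0.43 to 0.54) and 0.07 ± 0.12 for Cd72 (95% interval -0.18 to 0.32). The sex patterns of the D370Y pairs ran in opposite directions, so sex and background cannot be told apart in any of these differences.

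The KO effect minus the D370Y effect was called for 0 of 41 members by limma, edgeR and DESeq2 (0.145% of all genes by limma), with 2 members at an unadjusted p under 0.05. These were Bank1 (0.35 ± 0.14, limma adjusted p = 0.580) and the Ras exchange factor gene Rasgrp3 (0.27 ± 0.13, adjusted p = 0.778). Rasgrp3 had 219.7, 251, 228, 206 and 185 CPM in the libraries labelled KO, against 184, 216, 195, 192 and 194 in Cre controls. It had 476, 457, 443, 468 and 518 CPM in D370Y libraries, against 488, 527 and 527 in WT libraries. The groups overlapped in both pairs. The KO effect minus the D370Y effect with ImuBcl6 was called for 0 of 41 members by limma, edgeR and DESeq2 (0.118% of all genes by limma), with 0 members at an unadjusted p under 0.05. The members with the smallest p there were Inpp5d (0.23 ± 0.11, limma adjusted p = 0.744) and Fyn (0.27 ± 0.15, adjusted p = 0.789). Fyn had 93.2, 105, 76.8, 94.7 and 94.7 CPM in the libraries labelled KO, against 98.4, 95.0, 105, 95.2 and 102 in Cre controls, and these overlapped. An adjusted p above the threshold does not show that the effects are alike, and the intervals were wide: for Ptpn22 the KO effect minus the D370Y effect was -0.31, with a 95% interval of -0.69 to 0.07.

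The proximal kinases gave 0 calls in the allele comparisons as fitted. Lyn and Blk, the Src family kinases of resting B cells, and Syk and Btk had log2 fold changes between -0.16 and 0.22 across the 3 comparisons. Blk stood at 441 ± 42.4 CPM (SD, n = 5) in ImuBcl6 D370Y and 376 ± 9.49 CPM (n = 5) in ImuBcl6 cells (0.22 ± 0.07, limma adjusted p = 0.0530). Fyn, a further Src family kinase, had 85.1, 89.1, 55.8, 66.0 and 84.5 CPM in ImuBcl6 D370Y libraries, against 91.4, 97.7, 97.5, 99.5 and 100.3 in ImuBcl6 libraries. Those groups did not overlap, but the difference missed the threshold (-0.37 ± 0.11, adjusted p = 0.0610). Btk is X-linked, and its level was 291 ± 26.7 CPM (n = 5) in D370Y libraries, which had the Xist pattern, and 311 ± 13.9 CPM (n = 3) in WT libraries, which had the Y-linked pattern (limma adjusted p = 0.538).

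Among receptor chains, Cd79a averaged 737 ± 27.3 CPM (SD, n = 5) in D370Y and 673 ± 30.9 CPM (n = 3) in WT cells, and Cd79b averaged 1695 ± 154 CPM in D370Y and 1736 ± 58.8 CPM in WT cells. Neither was called. Cr2, the complement receptor that lowers the threshold of receptor signalling together with the tetraspanin CD81, varied most among D370Y libraries, at 225, 251, 249, 387 and 602 CPM, against 305, 285 and 369 in WT libraries. Its coefficient of variation in D370Y libraries was 46.1%, where the median member had 8.63%. Its log2 fold change was 0.01 with a 95% interval of -0.59 to 0.60, the widest of the 41 members in that comparison.

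The other adaptors were not called. Blnk averaged 482 ± 11.0 CPM in D370Y (n = 5) and 554 ± 14.4 CPM in WT cells (n = 3), without overlap, and its log2 fold change of -0.20 ± 0.06 had a limma adjusted p of 0.0820. It was -0.12 with ImuBcl6, where the groups overlapped. In the KO comparison it was -0.24 ± 0.12 (limma adjusted p = 0.592), and every library labelled KO lay below every Cre control. Dapp1, which binds the lipid product of PI3K, was at 79.0 ± 3.33 CPM in D370Y and 92.0 ± 7.65 CPM in WT cells (-0.22 ± 0.07, adjusted p = 0.118). Grap, which encodes a further adaptor of the GRB2 family, had log2 fold changes of 0.06, 0.02 and -0.06 in the 3 comparisons in the order above. Grb2, Dok3, Lat2 and Pik3ap1, which encodes the PI3K adaptor BCAP, had log2 fold changes between -0.19 and 0.16.

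Of the inhibitory receptors and phosphatases that were not called, Cd22 averaged 993 ± 158 CPM in D370Y (n = 5) and 836 ± 5.98 CPM in WT cells (n = 3), with a log2 fold change of 0.23 ± 0.11 (limma adjusted p = 0.270). With ImuBcl6 it was 1143 ± 153 CPM with D370Y and 984 ± 44.1 CPM without (0.21 ± 0.08, adjusted p = 0.134). Ptpn6, the SHP-1 gene, had log2 fold changes of -0.05, 0.05 and 0.00, and Ptprc, which encodes CD45, had 0.02, 0.03 and 0.17 in the same order. The PI3K and AKT genes Pik3cd, Pik3cg, Pik3r1 and Akt1 gave 0 calls, with log2 fold changes from -0.19 to 0.01. The exchange factor genes Vav1, Vav2, Sos1 and Rasgrp3 lay between -0.20 and 0.15.

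The calcium and NFAT arm (Plcg2, Itpr2, Prkcb, the calcineurin subunit gene Ppp3ca, Nfatc1, Nfatc2 and Nfatc3) gave 0 calls of 7 in each allele comparison, with log2 fold changes from -0.22 to 0.28. The largest was Ppp3ca in the libraries labelled KO, at 31.9 ± 4.38 CPM (n = 5), against 26.2 ± 3.40 CPM (n = 5) in Cre controls (0.28 ± 0.11, limma adjusted p = 0.394). Bcl10 and Malt1, which pass the protein kinase C signal to NF-kappaB, lay between -0.15 and -0.01 and were not called.

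A list of 89 further genes of the pathway was fitted in the same way. The share called in either direction was 4.65% in D370Y against WT, where that of all genes tested was 3.55%. It was 5.75% with ImuBcl6, against 8.18% of all genes, and 1.18% in the KO comparison, against 1.39%. These shares are near or below those of all genes. In D370Y against WT 4 of the 86 tested rose and 0 fell: the PI3K subunit gene Pik3r5 (log2 fold change 0.73), the inhibitory receptor genes Lilrb3 (0.60) and Ceacam1 (0.57), and Prkce (0.44). With ImuBcl6 2 of 87 rose, Lilrb3 (0.72) and the adaptor gene Themis2 (0.42). In that comparison 3 fell, the transcription factor gene Foxo1 (-0.28), Prkcd (-0.27) and the calcium channel gene Itpr3 (-0.27). In the libraries labelled KO 1 of 85 rose, Lilrb3 (0.53, limma adjusted p = 0.0176). Lilrb3, which is also named Pirb and whose product recruits SHP-1, was thus called higher in all 3 comparisons. Its CPM was 8.18 to 14.5 in D370Y and 6.07 to 7.19 in WT libraries, 8.28 to 15.9 in ImuBcl6 D370Y and 4.97 to 7.87 in ImuBcl6 libraries, and 8.67 to 12.8 in the libraries labelled KO and 6.12 to 7.49 in Cre controls.

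Genes that B cells induce on receptor stimulation were read from a list of 20. In D370Y against WT 1 of the 15 tested rose, Irf4 (0.52 ± 0.09 SE, limma adjusted p = 0.00779). With ImuBcl6 0 of 16 rose and 2 fell, Rgs1 (-1.11 ± 0.30, adjusted p = 0.0431) and the NF-kappaB inhibitor gene Tnfaip3 (-0.30 ± 0.07, adjusted p = 0.0255). In the KO comparison limma called 0 of 16, with 4 at an unadjusted p under 0.05. The shares called were 6.67%, 12.5% and 0% in that order, where 3.55%, 8.18% and 1.39% of all genes tested were called. In D370Y against WT 14 of the 15 had a positive log2 fold change, with a median of 0.13, against -0.02 for all genes. With ImuBcl6 8 of 16 were positive, and in the KO comparison 7 of 16.

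Promoter sequence is shown for the 4 members that rose in at least 2 allele comparisons. RefSeq promoters on GRCm38.p6, from 250 bases before to 50 after an annotated start, were found for 33 of the 41 members, as 45 windows. Each is written 5' to 3' on the gene's own strand, and capitals mark the letters CCCNNGGG, the core of sites bound by the B cell factor EBF1.
Grap2, chr15:80623233-80623532, plus strand, a start inside the annotated gene: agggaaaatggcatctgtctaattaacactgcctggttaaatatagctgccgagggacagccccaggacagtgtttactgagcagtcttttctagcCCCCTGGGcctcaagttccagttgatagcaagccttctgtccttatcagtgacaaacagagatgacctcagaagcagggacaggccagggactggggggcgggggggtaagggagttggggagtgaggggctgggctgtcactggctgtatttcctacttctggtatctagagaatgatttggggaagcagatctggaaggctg
Ptpn22, chr3:103859545-103859844, plus strand, the start at the 5' end of the gene: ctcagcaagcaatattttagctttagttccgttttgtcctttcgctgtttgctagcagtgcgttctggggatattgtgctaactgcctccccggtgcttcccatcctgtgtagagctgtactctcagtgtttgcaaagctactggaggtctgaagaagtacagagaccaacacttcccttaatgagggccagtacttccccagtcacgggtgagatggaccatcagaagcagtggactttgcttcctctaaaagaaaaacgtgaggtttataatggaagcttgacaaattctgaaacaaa
Bank1, chr3:136326017-136326316, minus strand: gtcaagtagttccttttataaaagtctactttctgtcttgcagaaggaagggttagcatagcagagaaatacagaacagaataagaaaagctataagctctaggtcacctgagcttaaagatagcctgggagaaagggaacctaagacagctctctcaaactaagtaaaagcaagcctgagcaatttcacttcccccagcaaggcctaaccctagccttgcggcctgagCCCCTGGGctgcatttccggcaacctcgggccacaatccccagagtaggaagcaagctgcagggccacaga
Cd72, chr4:43454577-43454876, minus strand: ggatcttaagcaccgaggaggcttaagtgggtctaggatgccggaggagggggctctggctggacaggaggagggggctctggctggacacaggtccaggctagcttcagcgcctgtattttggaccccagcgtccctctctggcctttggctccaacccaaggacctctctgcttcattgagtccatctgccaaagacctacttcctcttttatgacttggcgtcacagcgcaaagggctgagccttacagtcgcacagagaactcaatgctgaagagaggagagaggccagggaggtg
Grap2 and Bank1 each hold CCCNNGGG, which reads the same on both strands, and the windows of Ptpn22 and Cd72 do not. Among all member windows 10 of 45 (22.2%) hold it, where 13.7% of the 32851 windows of all genes do. The letters TTCCTAGAA, a BCL6 type motif, searched on both strands, are in 0 of the 45 member windows and in 0.411% of all windows. The octamer ATGCAAAT is in 2 member windows (Blnk and Prkcb) and in 1.74% of all, and GGGNNTTCC, a kappaB type motif, is in 4 and in 5.82% of all, on either strand. None of the 4 printed windows holds any of these last 3 motifs. A match is a run of letters, and its absence from these windows says nothing of sites elsewhere.

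Markers of other cell types and states moved with the groups. In these bulk samples fewer cells of a type and less RNA per cell cannot be told apart. A list of naive B cell markers without the members Bank1 and Cr2 summed to 542 to 736 CPM in D370Y and 408 to 449 CPM in WT libraries, with 6 of 8 genes called higher. It summed to 366 to 470.1 CPM in ImuBcl6 D370Y and 257 to 315 CPM in ImuBcl6 libraries (6 of 8 higher), and to 358 to 500.0 CPM in the libraries labelled KO and 296 to 346 CPM in Cre controls (4 of 8 higher). Among GC genes, 4 of 15 fell in each D370Y comparison and 1 of 15 in the KO comparison. The GC list summed to 7598 to 8364 CPM in D370Y and 8297 to 9236 CPM in WT libraries, 5215 to 6677 CPM in ImuBcl6 D370Y and 5930 to 7325 CPM in ImuBcl6 libraries, and 4578 to 4879 CPM in the libraries labelled KO and 4771 to 5094 CPM in Cre controls. Gcet2, a GC-restricted gene, fell in all 3, by 0.48, 0.78 and 0.69 on the log2 scale.

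Myeloid genes summed to 123 to 143 CPM in D370Y and 72.3 to 87.7 CPM in WT libraries, with 6 of 11 tested genes called higher, among them Itgam and Lyz2. With ImuBcl6 they summed to 168 to 251 CPM with D370Y and 122 to 166 CPM without (5 of 8 higher). In the libraries labelled KO they summed to 111 to 232 CPM and in Cre controls to 129 to 183 CPM, with 0 of 12 called by limma and 1 at an unadjusted p under 0.05. The T cell list summed to 276 to 361 CPM in D370Y and 272 to 294 CPM in WT libraries, 402 to 485 CPM in ImuBcl6 D370Y and 380 to 478 CPM in ImuBcl6 libraries, and 294 to 500.3 CPM in the libraries labelled KO and 372 to 421 CPM in Cre controls. Most of that sum was Cd2 and Lck. Cd3g and Cd2 were called higher in ImuBcl6 D370Y cells. Cd3g was at 3.09 to 9.12 CPM in ImuBcl6 D370Y and 0.332 to 2.09 CPM in ImuBcl6 libraries, and at most 2.18 CPM in the other groups. Cd247 was at 14.5 to 16.4 CPM in ImuBcl6 D370Y and 12.2 to 29.0 CPM in ImuBcl6 libraries, 4.62 to 13.5 CPM in the libraries labelled KO and 5.86 to 8.81 CPM in Cre controls, and at most 0.839 CPM in D370Y and 0.301 CPM in WT libraries. Plasma cell genes gave 2 calls of 8 in D370Y against WT (Prdm1 and Irf4, both higher), 1 of 7 with ImuBcl6 and 0 of 8 in the KO comparison (2 at an unadjusted p under 0.05). Of 9 erythroid or platelet genes listed, only 1, 2 and 1 passed the filter and were tested in the 3 pairs, in the order above. The limma fits called 0 of these, with 0 at an unadjusted p under 0.05, and the rest of the list was not tested. The sum of the erythroid and platelet list reached 45.9 CPM in 1 library labelled KO and 9.94 CPM in Cre controls. Hba-a1 and Hba-a2 were at 0 CPM in every library, which allows up to 0.133 CPM for a count of 3 reads. The part of these marker changes in the results on the members was not tested.

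**Figure D4:**
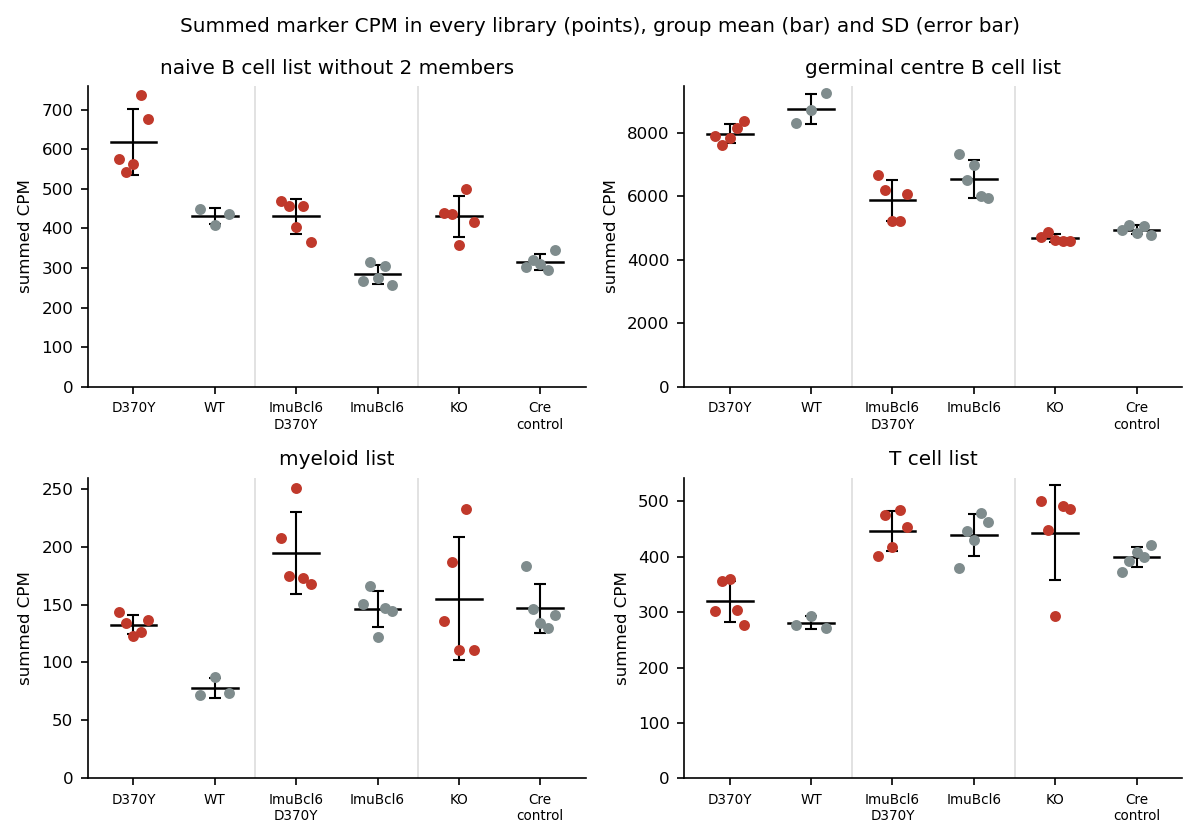
Summed CPM of 4 marker lists in every library, with the group mean as a bar and the SD as an error bar; each allele group stands left of its control. The naive B cell list, drawn without the members Bank1 and Cr2, is higher in all 3 allele groups than in their controls without overlap, while the myeloid list overlaps in the KO pair.

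ImuBcl6 against WT asked how the Bcl6 allele itself goes with the members. Of the 41 members 7 were called higher, where 24.7% of all genes were called higher, and 17 lower, where 28.6% were called lower, so that most genes tested differed and the share of members (58.5%) was near that of all genes (53.3%). Cr2 had the largest difference, at 139, 99.0, 108, 108 and 71.5 CPM in ImuBcl6 libraries, against 305, 285 and 369 in WT libraries (log2 fold change -1.62 ± 0.17 SE). Ptprc (-0.67), Bank1 (-0.64), Ppp3ca (-0.61), Grap2 (-0.57) and Prkcb (-0.57) were also called lower. Ptpn22 (0.76), Grb2 (0.43), Inpp5d (0.34), Plcg2 (0.33) and Cd22 (0.23) were called higher. Grap2 and Bank1, both higher with D370Y in the ImuBcl6 background, were thus lower in ImuBcl6 than in WT cells, and Inpp5d the reverse; these comparisons share the ImuBcl6 libraries.

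Of the other pathway genes 16 rose and 37 fell of 86 tested, among them the phosphatase-like gene Ubash3b (1.51) and the lipid phosphatase gene Inppl1 (0.82) upward and the CD20 gene Ms4a1 (-1.05) downward. Of the genes induced by receptor stimulation 8 rose and 2 fell of 16. The share called was thus 61.6% of the other pathway genes and 62.5% of the induced genes, where 53.3% of all genes were called. In the naive B cell list without members 6 of 8 fell.

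Several measures moved with this comparison. All 5 ImuBcl6 libraries had the Xist pattern and all 3 WT libraries the Y-linked one, and reads on listed genes were 31.8 to 36.5 M in ImuBcl6 and 19.0 to 19.4 M in WT libraries. Fos is an immediate early gene and belongs to the list of genes induced by receptor stimulation. It averaged 179 ± 24.3 CPM (n = 5) in ImuBcl6 and 1.05 ± 0.367 CPM (n = 3) in WT libraries. In Cre controls, which have the genotype label of WT, it averaged 92.3 ± 25.1 CPM (n = 5). The members also differed between Cre control and WT libraries: of the 20 members with merged exons longer than 5840 bases, 13 had a lower mean in Cre controls, with a median log2 ratio of -0.95. Of the 21 others 7 had a lower mean, with a median log2 ratio of 0.29. Ptprc, with the longest exons of the members, had a log2 ratio of -2.10, Cr2 -2.02 and Bank1 -1.73, whereas Cd79a had 0.80. In ImuBcl6 over WT the same 20 members had a median log2 ratio of -0.32 and the 21 others -0.01. Both ratios share the WT libraries. Genotype, sex, library set and transcript length effects therefore cannot be told apart in ImuBcl6 against WT.

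**Figure D5:**
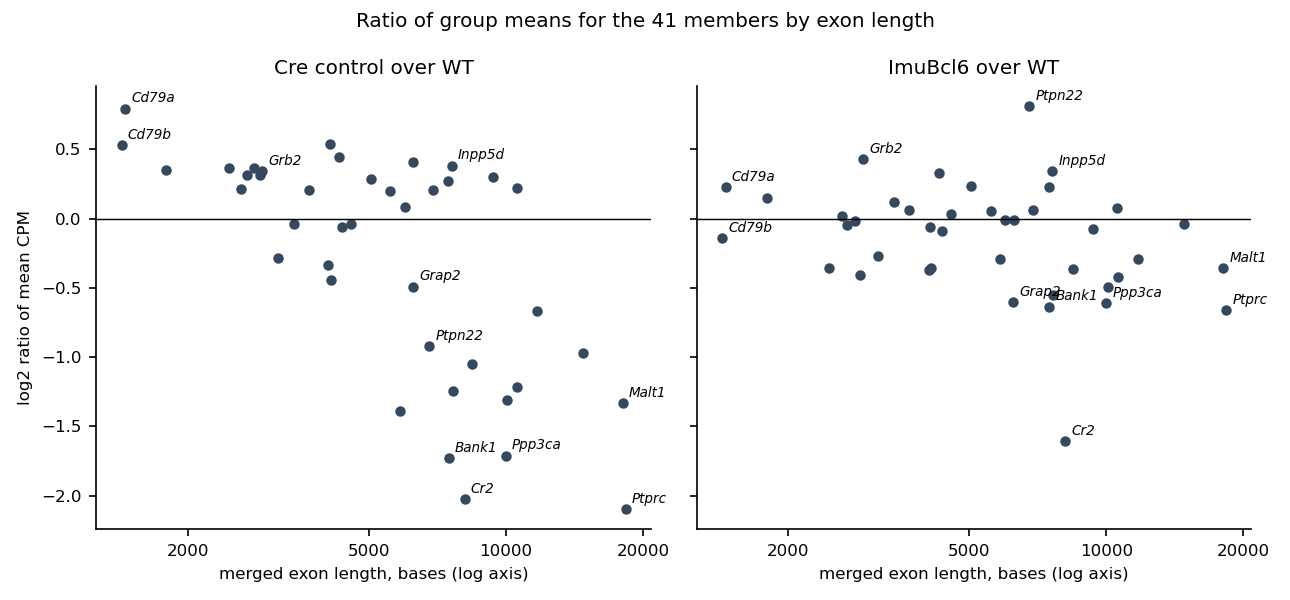
Log2 ratio of mean CPM for the 41 members against merged exon length on a log axis, for Cre control over WT (left) and ImuBcl6 over WT (right), 1 point per member. In the left panel members with long exons such as Ptprc and Malt1 lie below 0 and the short Cd79a and Cd79b above 0, and Cr2 lies far below 0 in both panels.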

How the data were processed

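The authors deposited for each library 1 table of CPM (read counts scaled to a common library total) per gene symbol. Reads were aligned to mm10 with STAR, per the submitters' processing notes. No source used here names the counter, its strandedness or the annotation, and a stranded TruSeq kit is named, per the labels' protocols, for the KO and Cre control libraries only. Every deposited CPM value was a whole multiple of the value of 1 read (100% within 0.01 of a whole number), so read counts were recovered for the alternatives. No pair of replicates agreed within sampling noise.

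Values were tested as log2(CPM + 1), from the deposited CPM, with limma 3.58.1 in R 4.3.3 (trended, robust variances), over genes with at least 1 CPM in as many libraries as the smaller group has. The p-values were adjusted by Benjamini-Hochberg over all genes of a comparison and called at 0.05. Each pair was fitted alone, and differences of effects were fitted on the 4 groups concerned. A fold change on this scale understates the change of low genes. The count tests of edgeR 4.0.16 and DESeq2 1.42.0 were run on the recovered reads as alternatives, beside other scalings, filters and pseudocounts, each library left out, a sex term for KO, and a replicate block. The procedure was tested on simulated data. Gene bounds and merged exon lengths came from GENCODE M21 (GRCm38), matched by symbol for 98.0% of symbols.

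The members, the other gene lists and the tests were chosen with earlier results of these data known. Any member may be named. Every library's value is given for members called in an allele comparison or a difference of effects and, where none was called, for the 2 with the smallest p. Of the other lists, up to 4 called genes per direction are named. The labels give no pairing of same-numbered replicates, and the main fits treat them as unpaired. Their deviations correlated between -0.276 and 0.514, which cannot decide whether they were paired.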

Additional observations from a re-analysis of the deposited data

Results flagged for a closer look

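In groups of 5 libraries, a member was singled out where its highest or lowest library lay far from the other 4 by Dixon's test at the 95% level. This held for 20 of 205 pairs of member and group (9.76%), where chance alone gives about 1 in 20. The 3 WT libraries were too few to test.

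KO replicate 3 accounted for 10 of the 20, in each case as the lowest library. Receptor and kinase genes were among them: Cd79a was at 727 CPM there, against 1182 to 1334 in the other KO libraries, Cd81 at 185 against 285 to 311, Syk at 887 against 1211 to 1290 and Btk at 185 against 256 to 279. So were the adaptor genes Blnk, at 375 CPM against 523 to 550, and Grap, at 193 against 301 to 318. Further along the pathway Akt1 was at 368 CPM against 583 to 656, Vav1 at 243 against 349 to 386, Plcg2 at 711 against 952 to 1046 and Bcl10 at 64.5 against 103 to 114. Other members were highest there, though the rule did not flag them. Ptprc was at 526 CPM against 312 to 439 in the other KO libraries. Malt1 was at 76.9 CPM against 42.3 to 66.2, and Itpr2 at 75.1 against 29.3 to 49.5. Ptprc, Malt1 and Itpr2 have the longest merged exons of the members, at 18313, 18040 and 14802 bases. In this library 64.4% of the authors' total lay on listed genes. The part of that share or of exon length in these values was not tested.

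The others were scattered over libraries. Grap2 in ImuBcl6 D370Y replicate 3 was at 43.7 CPM, against 24.2 to 29.6 in the other libraries of that group, and its rise was called without that library too. Bank1 in D370Y replicate 5 was at 427 CPM against 313 to 339, and Ppp3ca in the same library at 111 against 86.3 to 91.6. Cd72 in ImuBcl6 replicate 2 was at 241 CPM against 212 to 217. In ImuBcl6 D370Y replicate 1 Btk was high, at 276 CPM against 252 to 257, and Bcl10 low, at 97.9 against 108 to 110. Dok3 in ImuBcl6 D370Y replicate 5 was at 218 CPM against 159 to 174, and Vav2 in D370Y replicate 4 at 118 against 96.2 to 102. In Cre controls Grap was at 308 CPM in replicate 4 against 289 to 293, and Ppp3ca at 32.0 in replicate 2 against 23.1 to 25.4.

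The effect of D370Y on Inpp5d differed between backgrounds by -0.41 on the log2 scale (with minus without ImuBcl6), with the limma adjusted p of 0.0487 given above. Sex and background cannot be told apart in this difference.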

How the results depend on the processing

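Over the 4 pair comparisons and the difference between backgrounds, 36 calls of members gave 608 values under alternatives: 529 kept the call, 79 lost it and 0 reversed, and 24 of the 36 were kept throughout. The KO comparison gave 5 members with DESeq2 and 6 without KO replicate 3 over reads on listed genes, an alternative chosen after seeing the data. The difference between backgrounds gave 0 members with no filter, with TMM, with edgeR and in the fit of 28 libraries. Leaving out 1 library gave 1 (without WT replicate 2) to 3 members in D370Y against WT, 5 to 7 with ImuBcl6, 2 to 5 in the KO comparison, 18 to 25 in ImuBcl6 against WT, 0 to 1 for the difference between backgrounds and 0 to 0 for both differences from KO. With a replicate block the counts were 4, 7, 3 and 20, and 1, 0 and 0 for the differences, where Bank1 took the place of Inpp5d; no pairing is given by the labels, and same-numbered libraries correlated between -0.276 and 0.514. Over all genes, calls in D370Y against WT numbered 376, with 219 under no filter, 249 in the fit of 28 libraries, 659 with DESeq2, 764 with the block, and 149, 148 and 124 without WT replicate 1, 2 or 3. With ImuBcl6 they numbered 882, with 1378 by DESeq2, 546 and 501 without ImuBcl6 D370Y replicate 2 or 3 and 434 without ImuBcl6 replicate 3. In the KO comparison they numbered 146, with 86 under no filter, 236 over listed reads, 243 with TMM, 238 with edgeR, 455 with DESeq2, 277 in the fit of 28 libraries, 449 without KO replicate 3 and 87 and 90 without Cre control replicate 2 or 3. The difference between backgrounds had 74 calls over all genes, with 49 under no filter, 184 with DESeq2 and 133 with the block. The KO effect minus the D370Y effect had 16, with 9 under TMM, 5 with edgeR, 43 with DESeq2 and 64 with the block. The KO effect minus that with ImuBcl6 had 13, with 8 at a pseudocount of 0.25, 24 under TMM, 76 with DESeq2 and 22 in the fit of 28 libraries. In ImuBcl6 against WT, Cd79a, Malt1 and Nfatc1 lost their calls in 9 alternatives each. The share of calls that were higher was 34.2% in the KO comparison and 48.3% over listed reads, and 34.2% with ImuBcl6 and 44.6% over listed reads. The cause of these shifts was not tested. A floor of 3 reads was 0.0640 to 0.133 CPM, below the filter of 1 CPM. The part of depth in the calls was not tested.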
